A study of Mus musculus with 22 samples.

Results

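Krüppel-like factors (KLFs) are zinc-finger transcription factors that bind GC-rich and CACCC-type promoter elements. The genes described here are Klf2, Klf3, Klf4, Klf6, Klf7, Klf9, Klf10, Klf13, Klf15 and Klf16, which are 10 of the 55385 mouse genes in the deposited tables. They were taken by symbol and were chosen from their measured levels in these libraries, Klf10 in layer V neurons above all, so their differences between cell types are given as a description, with no test. Tests were kept to genes outside these 10 and to the relative use of transcripts within genes. Klf10 was included in the latter, and its calls there are no independent result.

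Messenger RNA bound to ribosomes was sequenced from 6 brain cell types of 6-week-old mice with 3 biological replicates each. Every mouse carried 1 floxed copy of the ribosomal protein gene Rpl22 (Rpl22 Fl/+), which adds an HA tag to the protein in cells that express Cre, so that tagged ribosomes and their RNA can be pulled down. Dentate gyrus granule cells were taken from hippocampus and layer V pyramidal neurons from cortex with the same driver, Rbp4-Cre. Cerebellar granule cells carried Gabra6-Cre and hippocampal inhibitory interneurons Dlx6a-Cre. Cortical astrocytes carried a driver labelled Aldh1-cre, which the study's methods give as Aldh1l1-cre/ERT2, and cortical microglia Tmem119-cre, both inducible by tamoxifen. Each interneuron library was pooled from 2 mice, and mice of both sexes were used. What a library holds depends on where the Cre driver is active, and in such bulk samples fewer cells of a type and less RNA per cell cannot be told apart.

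There were 22 libraries because 4 replicates were sequenced in both of 2 batches. One library per replicate, that of batch 1 where there was a choice, gave the 18 libraries behind every value unless stated. All interneuron and microglia libraries were from batch 2, so for these 2 types batch and cell type cannot be told apart. Totals ran from 38270477 to 97992957 estimated counts per library. Levels are in TPM, a unit that scales each library to the same total and adjusts for transcript length, and are given as mean ± SD over 3 libraries or by library in the order of replicates 1, 2 and 3. All markers of the labelled type were highest in that type for dentate gyrus granule cells (5 of 5), cerebellar granule cells (6 of 6), interneurons, astrocytes and microglia (7 of 7 each). In layer V neurons 2 of 5 were, Fezf2 and Deptor, while Etv1, Parm1 and Bcl11b were higher in another type. The 7 oligodendrocyte markers summed to 2996 to 3212 TPM in interneuron libraries and to at most 1252 TPM elsewhere.

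The family divides by the partners its members recruit. KLF9, KLF10, KLF13 and KLF16 bind the SIN3 corepressor and KLF3 binds the CtBP corepressor. KLF2, KLF4, KLF6 and KLF7 belong to a largely activating branch, with KLF2 and KLF4 best known from blood vessels and myeloid cells, and KLF4, KLF6 and KLF7 from the control of axon growth. KLF9 and KLF15 are induced by steroid or thyroid hormones, and KLF10 was named for its rapid induction by TGF-beta.

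Sequences are shown for Klf10, Klf2 and Klf4, the genes with the widest spread of levels. Klf10 is on chr15:38291463-38300706, minus strand, and the sequence below is the last 214 bases of its 326-base transcript (ENSMUST00000228416.1), which carried most of the gene's signal. It is read from GENCODE M21 on GRCm38, and capitals mark an unbroken run of 33 A in exon 2 of 3, at chr15:38300359-38300391.
Klf10, 326-base transcript: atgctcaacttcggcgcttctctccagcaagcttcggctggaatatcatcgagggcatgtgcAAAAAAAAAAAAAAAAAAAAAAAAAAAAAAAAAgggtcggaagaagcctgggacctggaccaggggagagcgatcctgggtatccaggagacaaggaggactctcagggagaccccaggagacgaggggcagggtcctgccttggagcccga

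The 250 bases before the RefSeq start of Klf4 (chr4:55532476-55532725, minus strand) and of Klf2 (chr8:72318812-72319061, plus strand), both on GRCm38.p6, are shown because these 2 genes shared one pattern across cell types. Capitals mark the matches of 4 motifs, searched on both strands, and neighbouring GC boxes may overlap. The GC box was searched as GGGCGG. The CACCC box was searched by those letters and the E-box as CACGTG. The MEF2-type motif was CTANNNNTAG.
Klf4: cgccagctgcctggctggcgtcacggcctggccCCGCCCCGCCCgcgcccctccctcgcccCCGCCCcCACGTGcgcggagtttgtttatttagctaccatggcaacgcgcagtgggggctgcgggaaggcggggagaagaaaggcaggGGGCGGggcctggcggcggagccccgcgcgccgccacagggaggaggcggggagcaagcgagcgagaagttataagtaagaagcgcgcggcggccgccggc
Klf2: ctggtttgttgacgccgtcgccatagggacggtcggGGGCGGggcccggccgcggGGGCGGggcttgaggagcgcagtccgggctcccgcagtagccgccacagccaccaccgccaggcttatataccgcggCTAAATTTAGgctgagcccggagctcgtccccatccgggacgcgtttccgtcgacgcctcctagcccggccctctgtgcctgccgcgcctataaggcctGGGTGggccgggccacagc

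Of the 10 genes, 8 were in the RefSeq promoter table (windows of 300 bases); Klf10 and Klf16 were not. A GC box was found in 7 of these 8, against 35.7% of all 32851 promoters, and a CACCC box in 6 of 8, against 57.5%. An E-box was found in 3 of 8 (7.15% of all promoters) and the MEF2-type motif in Klf2 alone (3.69%). None of the 8 held a cyclic AMP response element (TGACGTCA, 1.79% of all) or a TATA box (TATAAA, 13.6%). Their GC content was 58.3% to 76.7%, and the median promoter had 52.7%. A match is a description of letters and not evidence of binding.

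Klf2, a flow-responsive regulator of endothelium and of myeloid quiescence, was highest in microglia. Its levels there were 54.1, 31.3 and 39.8 TPM. Dentate gyrus granule cells followed with 11.1, 9.01 and 8.21 TPM, and cerebellar granule cells had the lowest levels, 0.346, 0.397 and 0.410 TPM. Microglia and dentate gyrus libraries did not overlap with each other or with any other type, and astrocytes (3.32 to 4.40 TPM) and layer V neurons (3.39 to 4.04 TPM) overlapped. The highest mean was 109 times the lowest.

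Klf4, one of the reprogramming factors and a regulator of monocyte differentiation, had an even wider range, of 249 times (163 times in batch 2 libraries alone, with 1 cerebellar library). Microglia held 20.3, 24.5 and 28.7 TPM, while no library of another type exceeded 2.58 TPM, an astrocyte library. Cerebellar granule cells were again lowest, at 0.108, 0.0579 and 0.130 TPM. All microglia libraries were therefore above all others, and the low end rests on few reads. The levels in dentate gyrus (1.30 ± 0.352 TPM), interneurons (0.837 ± 0.392 TPM) and layer V neurons (0.609 ± 0.129 TPM) ran into each other.

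Endothelial cells also express Klf2 and Klf4, and their markers were not absent from microglia libraries. The 10 endothelial markers summed to 497, 340 and 434 TPM in the 3 microglia libraries, with none at 0, and to at most 75.0 TPM elsewhere. The 7 mural markers summed to 298, 240 and 323 TPM in microglia and 110 to 119 TPM in astrocytes. The 3 microglia libraries had the same order for Klf2 as for the endothelial sum, and another order for Klf4. The 7 microglia markers summed to 24269 to 26200 TPM in these libraries. The part of vascular RNA in the Klf2 and Klf4 levels was not tested.

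Klf3, a CtBP-recruiting repressor, was also highest in microglia, with 48.7, 45.7 and 38.0 TPM. Layer V neurons were lowest, with 4.81, 4.78 and 4.23 TPM, a fold of 9.57 between the means. Astrocytes (20.2 to 23.2 TPM) and dentate gyrus granule cells (17.9 to 21.3 TPM) overlapped, and every other neighbouring pair of types was apart. Klf3 thus separated the pair of glial types from layer V neurons, with dentate gyrus granule cells close to astrocytes.

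Klf6, a growth and injury-response factor, differed least, by 3.79 times. Microglia (38.5, 35.8 and 34.6 TPM) and layer V neurons (29.2, 30.2 and 33.2 TPM) held the highest levels and did not overlap. Dentate gyrus granule cells were lowest, with 7.61, 10.02 and 11.1 TPM. Astrocytes, cerebellar granule cells and interneurons lay between, from 14.5 to 21.0 TPM, and overlapped along that order.

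Klf7, which is needed for the outgrowth of several kinds of axon, was a cerebellar granule cell gene in these libraries, with 41.8, 38.8 and 37.8 TPM. Layer V neurons followed with 18.2, 17.7 and 18.3 TPM. The other 4 types lay between 8.48 and 13.02 TPM. Cerebellar and layer V libraries stood apart from all others, whereas interneurons, astrocytes and dentate gyrus granule cells overlapped.

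Klf9, a hormone-induced repressor that limits neurite growth, had the highest level of the 9 genes other than Klf10 in 4 of the 6 types. Cerebellar granule cells held 314, 319 and 295 TPM, dentate gyrus granule cells 233, 251 and 229 TPM and layer V neurons 210, 211 and 203 TPM. Astrocytes had 110, 96.0 and 89.0 TPM, interneurons 48.6, 56.3 and 54.3 TPM and microglia 26.5, 27.5 and 33.6 TPM. No neighbouring pair of types overlapped, so that the 3 excitatory types were above astrocytes, and interneurons lay between astrocytes and microglia.

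Klf13, a SIN3-binding repressor of the same subgroup as Klf9, led the 9 genes by mean in interneurons and microglia. In microglia replicate 1, however, Klf13 was below Klf2 (54.1 TPM) and Klf3 (48.7 TPM). It was highest in dentate gyrus granule cells, with 219, 238 and 223 TPM, followed by cerebellar granule cells with 171, 170 and 154 TPM and layer V neurons with 99.5, 95.4 and 98.2 TPM. Interneurons had 72.5, 70.0 and 60.1 TPM, microglia 39.1, 48.4 and 56.8 TPM and astrocytes 28.9, 23.9 and 26.8 TPM. Again no neighbours overlapped. Klf9 and Klf13 together made up most of the summed level of the 9 genes in each excitatory type.

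Klf16, another SIN3-binding member, shared the dentate gyrus maximum of Klf13 (77.3, 84.5 and 70.4 TPM) but had its minimum in cerebellar granule cells (8.05, 8.002 and 7.05 TPM). Layer V neurons held 51.2, 47.6 and 44.2 TPM and interneurons 26.6, 28.2 and 27.6 TPM. Microglia and astrocytes had the same mean, 14.4 TPM, with overlapping libraries. The 2 granule cell types thus lay at opposite ends for Klf16, with a fold of 10.1 between them, while both were high for Klf9 and Klf13.

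Klf15, a glucocorticoid-induced regulator of amino acid breakdown, was highest in astrocytes with 63.2, 54.3 and 51.3 TPM. Interneurons were next with 17.6, 19.9 and 20.9 TPM, and cerebellar granule cells lowest with 5.50, 5.13 and 4.99 TPM. Astrocyte libraries were above all others, and dentate gyrus, microglia and layer V libraries overlapped between 6.70 and 9.64 TPM. Its 2373-base transcript held 38.2% to 97.9% of the gene's TPM by library, the widest range of a leading transcript among the 10 genes.

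**Figure D1:**
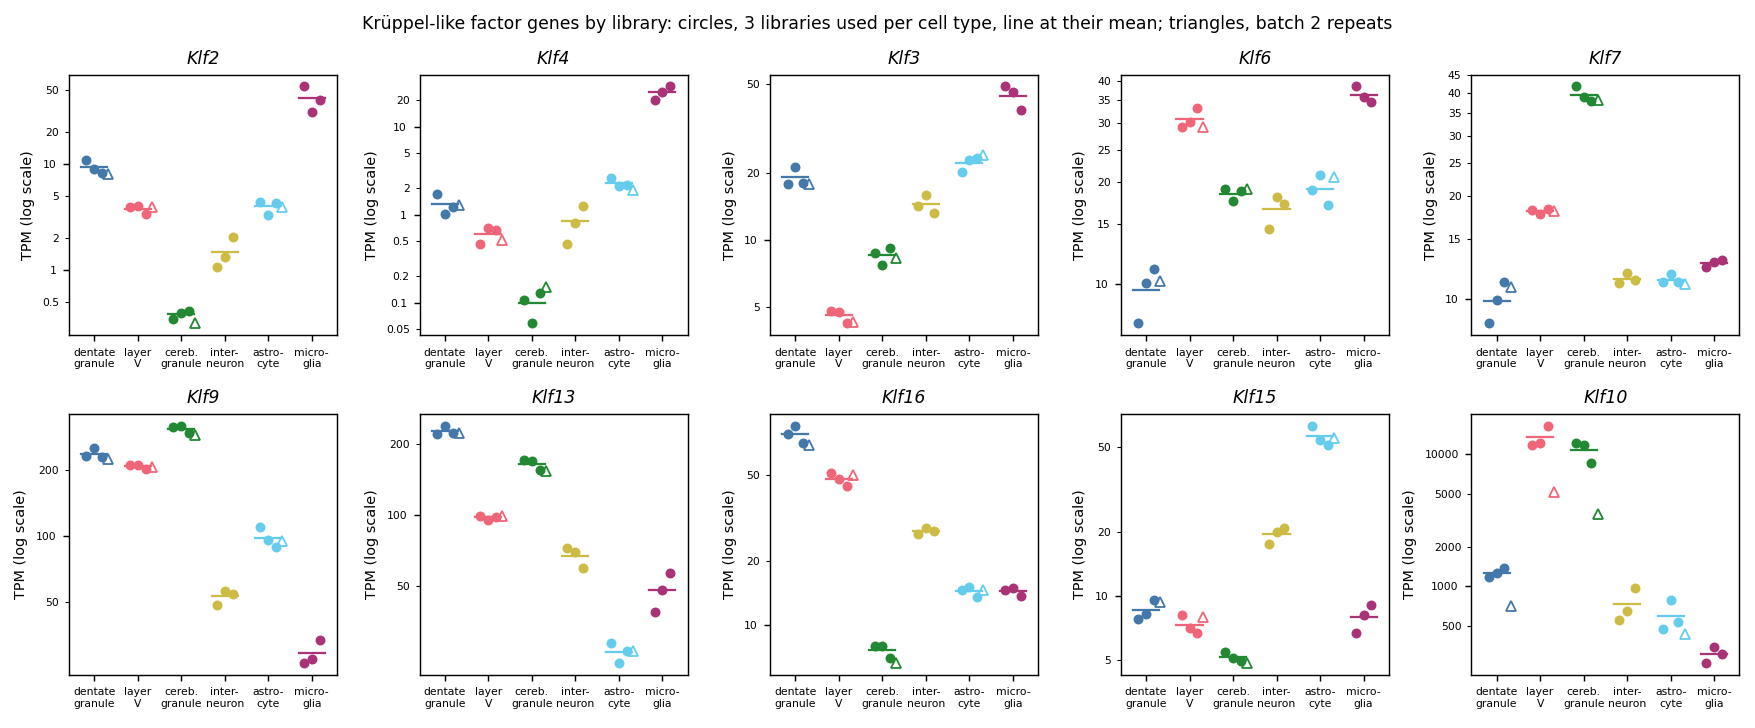
Level of each of the 10 genes by library, in TPM on a log axis, with 1 panel per gene and the 6 cell types along the horizontal axis. Circles are the 3 libraries used per type, lines their means and triangles the batch 2 repeats; Klf2 and Klf4 in microglia and Klf15 in astrocytes lie above every other library, and the Klf10 repeats lie below their batch 1 libraries.

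Summed over the 9 genes without Klf10, dentate gyrus granule cells had 600 TPM, cerebellar granule cells 554 TPM, layer V neurons 419 TPM, microglia 259 TPM, astrocytes 254 TPM and interneurons 212 TPM. Microglia and astrocytes overlapped and the other neighbours did not. Klf10 as deposited held 54.5% to 96.9% of the 10-gene sum by type, lowest in microglia and highest in layer V neurons.

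Klf10 was listed at 11592, 11954 and 16249 TPM in layer V neurons and at 12057, 11530 and 8440 TPM in cerebellar granule cells. These 2 types overlapped and lay above all other libraries. Dentate gyrus granule cells had 1176, 1261 and 1368 TPM, interneurons 564, 659 and 981 TPM, astrocytes 479, 787 and 543 TPM and microglia 267, 352 and 311 TPM. The fold between the highest and the lowest mean, those of layer V neurons and microglia, was 42.8 over these libraries. In batch 2 libraries alone, where layer V neurons had 1 library, it was 16.52.

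Almost all of this signal was assigned to the 326-base transcript printed above. It held 96.6% to 99.9% of the gene's TPM and 68.1% to 97.7% of its estimated counts, from 1202 to 75239 counts per library. The share is larger in TPM because counts are divided by an effective length, which was only 132 to 151 bases for this transcript. Its first 149 bases are shared with the 3044-base transcript, the longest of the gene's. Of its windows of 31 bases, the default length that kallisto matches, 59.8% were in no other Klf10 transcript and 3 of 296 were A alone.

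The 5 other Klf10 transcripts gave a different picture. Together they reached 22.9, 25.4 and 32.2 TPM in layer V neurons (sorted by size), 19.3 to 21.3 TPM in cerebellar granule cells and 15.4 to 23.4 TPM in dentate gyrus granule cells. Means were 8.66 TPM in microglia, 8.57 TPM in astrocytes and 2.62 TPM in interneurons. Layer V neurons were still highest and did not overlap with cerebellar granule cells, by 1.34 times between the means, but their lowest library, at 22.9 TPM, was below the highest dentate gyrus library, at 23.4 TPM. Cerebellar and dentate gyrus libraries overlapped too. On the log2(TPM + 0.1) scale the difference of layer V neurons from the mean of the other 5 types was 3.55 with the 326-base transcript and 1.49 without it. For dentate gyrus granule cells it was -0.49 and 0.91, so the sign turned. For cerebellar granule cells it was 3.18 and 1.00, for interneurons -1.48 and -2.48, for astrocytes -1.82 and -0.46 and for microglia -2.94 and -0.46. Interneurons, not microglia, thus became the lowest type.

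**Figure D2:**
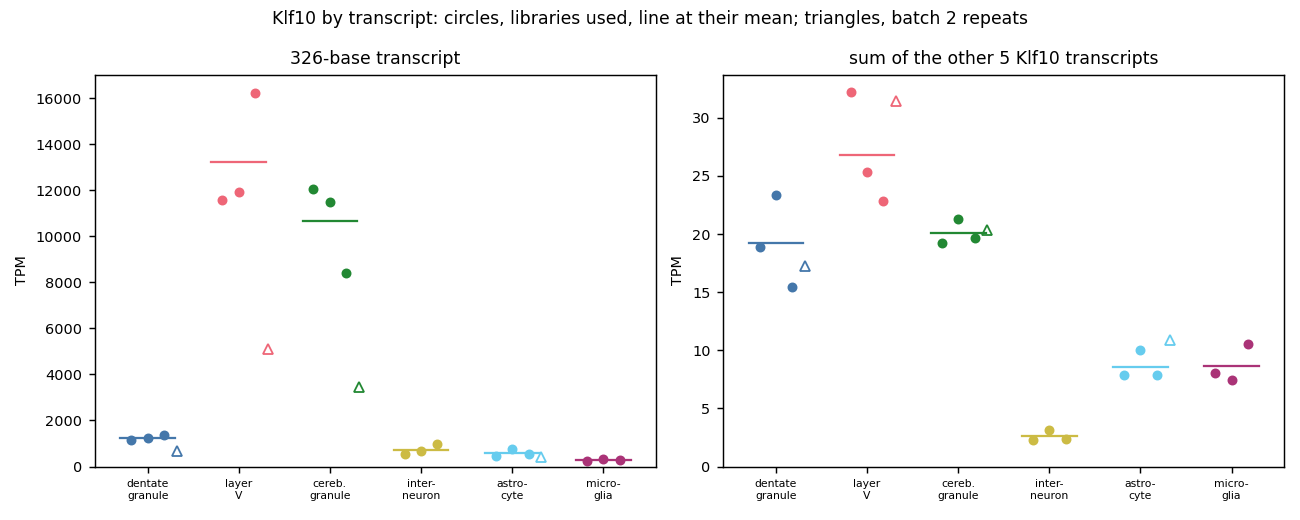
Klf10 by library in TPM, with the 326-base transcript on the left and the sum of the other 5 transcripts on the right, on linear axes that start at 0. Circles are the libraries used, lines their means and triangles batch 2 repeats; layer V and cerebellar libraries are far above the rest on the left, and on the right the dentate gyrus libraries, at 15.4 to 23.4 TPM, reach the cerebellar ones.

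The 326-base transcript also differed between the batches of the same replicate. The sample titles give only a batch number and do not say how the batches differ. Klf10 went from 11592 to 5116 TPM between batch 1 and batch 2 for layer V replicate 1, from 8440 to 3484 TPM for cerebellar replicate 3, from 1368 to 714 TPM for dentate gyrus replicate 3 and from 787 to 440 TPM for astrocyte replicate 2. The ratios of batch 2 to batch 1 were 0.413 to 0.560. For the other 9 genes the 36 ratios were 0.770 to 1.196 with a median of 0.988, and for Klf10 without the 326-base transcript they were 0.975 to 1.12. The dentate gyrus repeat lay inside the interneuron range of 564 to 981 TPM, although the batch 1 library of that replicate, at 1368 TPM, was above it. In batch 2 libraries alone, all 10 genes had their highest and their lowest level in the same types as over the 18 libraries.

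**Figure D3:**
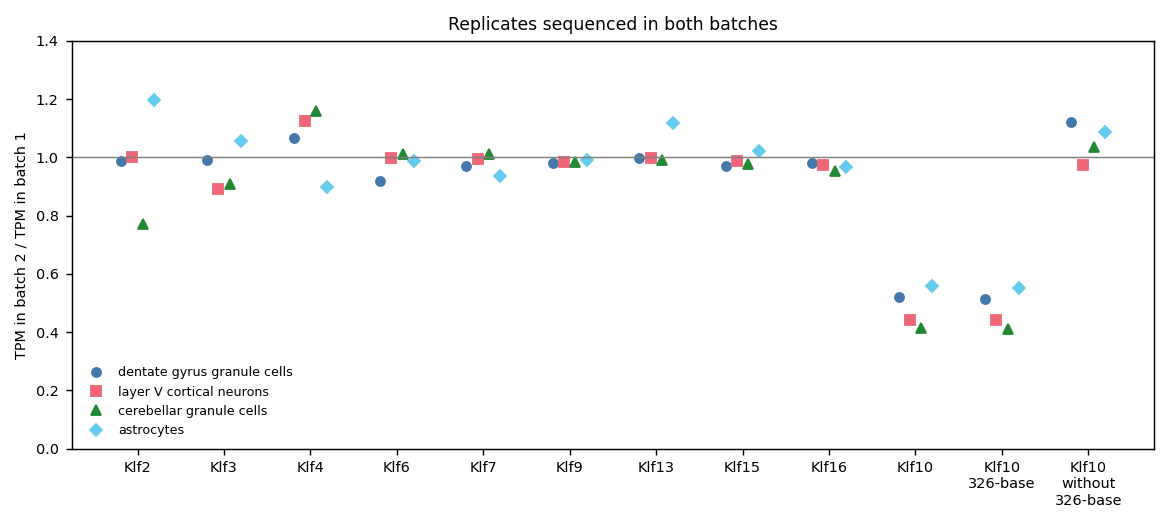
Ratio of TPM in batch 2 to TPM in batch 1 for the 4 replicates sequenced in both batches, by gene, with a line at 1 and the vertical axis from 0. Each point is 1 replicate; Klf10 lies at 0.413 to 0.560 and the other genes at 0.770 to 1.196, as does Klf10 without its 326-base transcript.

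Runs of at least 31 A or T occurred in 210 of 140930 matched transcripts, 121 of A and 89 of T. Of the 37 matched transcripts of the 10 genes, the 326-base Klf10 transcript alone had one. The longest runs in the 9 genes other than Klf10 were 14 A and 30 T, and in the other Klf10 transcripts 11. Among the 210, 8 were shorter than 1500 bases and had at least 1000 counts in a library, a set chosen after its values were seen. Pearson's r with the Klf10 transcript over the 18 libraries was -0.044 for Mrpl23-ps1 and 0.891 to 0.968 for the others. Except for Mrpl23-ps1, all had their highest means in layer V neurons and cerebellar granule cells. EU599041, for example, had 1208 and 789 TPM there and at most 26.4 TPM in another type. The Klf10 transcript was lower in batch 2 in all 4 repeats. Of the other 7, 3 were lower in both the layer V and the cerebellar repeat. EU599041 had ratios of 0.406 and 0.449 there, but 2.24 in the dentate gyrus and 1.60 in the astrocyte repeat. AA465934 had 0.705 and 0.423 there, but 1.07 and 1.12 in the dentate gyrus and astrocyte repeats. Gm15515 was lower in all 4, with 0.566, 0.289, 0.459 and 0.807 in the same order. Of the remaining 4, Gm43972 was higher in layer V and cerebellum (2.19 and 1.12), as was Brd2 (1.54 and 1.13), while Mrpl23-ps1 (1.05 and 0.921) and Gm37144 (1.07 and 0.979) lay near 1. The part of the A run in the Klf10 level was not tested.

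The genes most like Klf10 were ranked by Pearson's r of log2(TPM + 0.1) over the 18 libraries, among 12662 genes. Only protein-coding genes outside the gene lists used here, with a mean of at least 5 TPM in a type, were ranked. The most alike were Necab3 (0.966), Prkcb (0.959), Olfr620 (0.952), R3hdm2 (0.946) and Olfr907 (0.946). The points share libraries and only 6 cell types, and no p is given. The longest A or T run in a transcript was 47 for Olfr620, 33 for Olfr907, 24 for Prkcb, 8 for R3hdm2 and 5 for Necab3.

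Use of transcripts within a gene was tested by edgeR in 7 of the 10 genes, since Klf2, Klf4 and Klf16 had a single transcript left to compare. Klf10 and Klf13 were called in layer V neurons against the mean of the other types, 2 of 7, where 47.0% of all 12435 genes were called. Klf6, Klf9 and Klf10 were called in glia (the mean of astrocytes and microglia) against the 4 neuron types, 3 of 7, against 66.7% of all genes. Both shares of the tested genes are below those of all genes, so neither count is a result about them. The Klf10 calls are no independent result, since its layer V level, from which it was chosen, is nearly all the 326-base transcript.

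The level of the 3044-base Klf10 transcript was 9.38 to 17.6 TPM in layer V neurons, 12.4 to 21.1 TPM in dentate gyrus granule cells and 14.6 to 19.96 TPM in cerebellar granule cells. It was 1.02 to 1.64 TPM in interneurons, 4.42 to 6.21 TPM in astrocytes and 3.94 to 4.80 TPM in microglia. The 3 excitatory types overlapped and lay above the other three. The 2917-base Klf10 transcript, of whose 31-base windows 99.2% are also in the 3044-base one, had 10.9 to 13.4 TPM in layer V neurons and at most 3.82 TPM in any other library used. Most of its reads would therefore fit both. The 599-base Klf13 transcript was used more in layer V neurons than in the mean of the other types (1.30, edgeR adjusted p = 0.041), at up to 21.97 counts per library there. Its share of the gene's TPM was 0.782% to 1.41% in layer V neurons. That overlapped with 0.652% to 1.05% in dentate gyrus granule cells (up to 27.6 counts), and interneurons reached 1.24%. The 799-base Klf6 transcript, a retained intron, had 2.73 in glia (edgeR adjusted p = 0.00075) and at most 61.5 counts. Its share of the gene's TPM was 0% to 9.73% in astrocytes and 0% to 6.49% in microglia. Dentate gyrus granule cells, a neuron type, had 3.10% to 9.30% and layer V neurons 0% to 1.13%. Cerebellar granule cells and interneurons had 0%. The 1118-base Klf9 transcript had 1.37 in glia (edgeR adjusted p = 0.0065) and at most 20.4 counts. These minor forms rest on few reads.

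Each type was next set against the mean of the other 5 on the scale of edgeR's log2 fold change, and the 10 genes were counted at 2-fold or more. Of all 20524 genes tested, the shares called (adjusted p at most 0.05 and at least 2-fold, edgeR) are given beside each count, and since the genes were chosen from these contrasts nothing is read from the comparison. The Klf10 values in these counts include the 326-base transcript. In dentate gyrus granule cells 4 were higher (14.1% of all genes) and 1 lower (14.0%): Klf16 by 1.90, Klf13 by 1.59, Klf2 by 1.36 and Klf9 by 1.11, with Klf6 at -1.50. In layer V neurons 3 were higher (17.3%) and 2 lower (16.2%): Klf10 by 3.496, Klf16 by 1.33 and Klf9 by 1.15, with Klf3 at -1.89 and Klf4 at -1.12. Both types shared high Klf9 and Klf16.

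In cerebellar granule cells 4 were higher (15.7%) and 5 lower (33.2%), with Klf10 at 2.91, Klf7 at 1.64 and Klf9 at 1.63, and with Klf4 at -4.41 and Klf2 at -4.04. In interneurons none was higher (14.8%) and 3 were lower (11.3%), namely Klf2 (-1.93), Klf10 (-1.89) and Klf9 (-1.59). Interneurons were thus the one type with no gene of the 10 above the mean by 2-fold. In astrocytes 2 were higher (24.4%) and 2 lower (10.4%), with Klf15 at 2.99 and Klf13 at -1.75. In microglia 4 were higher (29.0%) and 2 lower (20.8%), with Klf4 at 5.27, Klf2 at 4.27 and Klf3 at 2.12, and with Klf10 at -2.49 and Klf9 at -2.25.

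In glia against neurons 4 were higher (30.3%) and 3 lower (15.9%). Klf4 (4.09), Klf2 (2.84), Klf3 (1.93) and Klf15 (1.43) were the higher ones and Klf10 (-2.47), Klf13 (-1.57) and Klf9 (-1.44) the lower. Against the mean of the other 5 types, Klf2 and Klf3 were 2-fold higher in microglia and Klf15 in astrocytes, and Klf4 was in both, with 1.28 in astrocytes. On the log2(TPM + 0.1) scale 3 counts changed by 1 gene: Klf4 in astrocytes (0.85) and Klf3 in cerebellar granule cells (-0.94) were under 2-fold, and Klf16 in glia (-1.04) was past it. On edgeR's scale the median over the 10 genes in glia against neurons was 0.25, beside 0.18 over all genes. In cerebellar granule cells these medians were -0.59 and -0.27.

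Other KLF genes were tested too, and 6 of 7 passed the filter on low counts (Klf17 did not). They are the KLF genes that a choice made with levels known left out, so their p-values are not independent of that choice. Klf5, a factor of proliferating epithelium, was higher in interneurons by 3.25 ± 0.174 (log2, SE, edgeR adjusted p = 1.3e-11), with a mean of 19.2 TPM, and in layer V neurons by 2.32 ± 0.183 (edgeR adjusted p = 2.4e-09), with 9.02 TPM. Klf12, a CtBP-binding repressor like Klf3, was lower in layer V neurons, at -1.66 ± 0.0980 (edgeR adjusted p = 3.8e-11), with 2.82 TPM. Klf3 and Klf12 were thus both lowest in layer V neurons. In interneurons 3 of the 6 were higher (Klf5, Klf8 and Klf14; 14.8% of all genes) and none lower (11.3%). In layer V neurons 2 were higher (17.3%) and 1 lower (16.2%), and in cerebellar granule cells 2 were lower (33.2%). Klf14 is among the genes called in each of these types but lay near the floor. Its mean was 0 TPM in cerebellar granule cells and at most 0.272 TPM, in dentate gyrus granule cells. Interneurons, at 0.179 TPM, were below dentate gyrus granule cells and layer V neurons (0.218 TPM), with overlapping libraries.

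The SP genes encode the nearest relatives of KLFs and bind the same GC boxes. Of the 9, 6 were higher (30.3% of all genes) and 1 lower (15.9%) in glia against neurons. These calls use the mean of the 4 neuron types and do not show where a gene was highest. Sp1 alone had its highest mean in a glial type, microglia. Sp2, Sp3, Sp4, Sp5 and Sp6 were highest in cerebellar granule cells and Sp7, Sp8 and Sp9 in interneurons. In cerebellar granule cells 4 were higher (15.7%) and 3 lower (33.2%), and in layer V neurons 4 were lower (16.2%) and none higher (17.3%). Sp9, a factor of interneuron development, was higher in interneurons by 6.26 ± 0.174 (edgeR adjusted p = 1.3e-15), with 51.8 TPM. Sp4, a neuronal SP factor, was higher in cerebellar granule cells by 2.62 ± 0.0629 (edgeR adjusted p = 6.4e-17), with 51.2 TPM, and lower in glia, at -1.43. Sp5 was listed at 0 in all 3 layer V libraries, so no fold is given there.

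**Figure D4:**
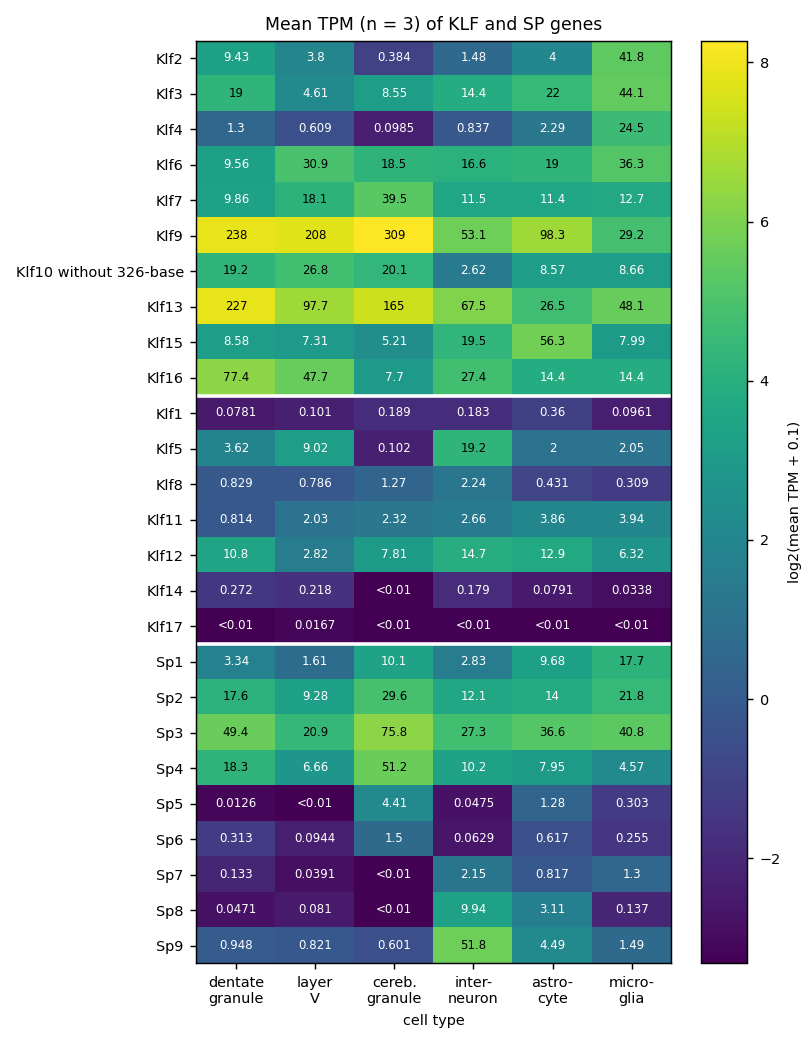
Mean TPM over 3 libraries of the 10 genes (upper block, with Klf10 without its 326-base transcript), the 7 other KLF genes (middle) and the 9 SP genes (lower) in 6 cell types, with colour as log2(mean TPM + 0.1) and the mean printed in each cell. Klf9 and Klf13 are the brightest rows, Klf4 is bright in microglia alone (24.5 TPM), and Klf5 and Sp9 peak in interneurons (19.2 and 51.8 TPM).

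Pathways that act on these genes were described by lists, each beside the median log2 fold change over all genes, -0.02 in layer V neurons and 0.18 in glia against neurons, and the shares of all genes called, 17.3% higher and 16.2% lower in layer V neurons and 30.3% and 15.9% in glia. Of 14 TGF-beta pathway genes, which lie upstream of Klf10, 1 was higher and 6 lower in layer V neurons (median -0.80), and 6 were higher and 1 lower in glia (median 0.76). The ligand Tgfb1 was at -2.46 ± 0.134 (edgeR adjusted p = 1.3e-11) and the receptor Tgfbr2 at -2.21 ± 0.106 (edgeR adjusted p = 2.2e-12) in layer V neurons. Both were highest in microglia, the type with the lowest Klf10 level as deposited. Without the transcript that carried most of its signal, Klf10 was lowest in interneurons, with a mean of 2.62 TPM. Microglia (8.66 TPM) and astrocytes (8.57 TPM) then overlapped. The 1 pathway gene called higher in layer V neurons was Smad3, at 1.32 ± 0.0486 (edgeR adjusted p = 5.5e-14). Of 16 immediate early genes, which respond to neuronal activity, 10 were higher and 3 lower in layer V neurons (median 1.201), led by Egr3 at 3.89 ± 0.0744 (edgeR adjusted p = 1.7e-17) and Fosb at 3.54 ± 0.181 (edgeR adjusted p = 5.5e-12). Their sum was 880, 762 and 673 TPM in layer V libraries, above all other types.

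Of the 4 hormone receptors that induce Klf9 and Klf15, Thrb, a thyroid hormone receptor, was higher in layer V neurons by 2.27 ± 0.0485 (edgeR adjusted p = 5.8e-17). Nr3c2, the mineralocorticoid receptor, was higher in dentate gyrus granule cells by 3.49 ± 0.0785 (edgeR adjusted p = 4.9e-17). In microglia, where Klf9 was lowest, 3 of the 4 were lower (20.8%), and in cerebellar granule cells, where Klf9 was highest, 1 was higher (15.7%) and 2 lower (33.2%). Of 10 glucocorticoid-induced genes 2 were higher and 2 lower in layer V neurons, near the shares of all genes (17.3% and 16.2%), with a median of 0.004. In microglia 5 were higher (29.0%) and 1 lower (20.8%), with a median of 1.43. Of 17 circadian clock genes 3 were higher in layer V neurons and none lower (median 0.46), while in microglia 9 were lower (20.8%) and 1 higher (29.0%; median -1.03).

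Of 15 genes of branched-chain and related amino acid breakdown, a process that KLF15 is known to regulate, 12 were higher in astrocytes (24.4% of all genes) and none lower (10.4%), with a median of 2.00 beside 0.08 over all genes. Prodh, proline dehydrogenase, was at 5.84 ± 0.109 (edgeR adjusted p = 1.5e-18), Gpt, an alanine transaminase, at 4.53 ± 0.0655 (edgeR adjusted p = 3.7e-20), and Dbt, a subunit of the branched-chain ketoacid dehydrogenase, at 2.55 ± 0.0381 (edgeR adjusted p = 5.7e-20). Klf15 and these genes were therefore high in the same cell type. In interneurons, second in Klf15, 1 of the 15 was higher (14.8%) and 3 lower (11.3%), and in layer V neurons 1 was higher and 7 lower.

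Of 13 KLF cofactors 1 was higher and 5 lower in layer V neurons (median -0.24), and 3 were higher and 1 lower in glia (median 0.25). Kat2b, an acetyltransferase, was at -2.75 and Hdac1, a deacetylase of the SIN3 complex, at -1.66 in layer V neurons, while Fbxw7, a ubiquitin ligase subunit that targets several KLFs, was at 1.81. Of 6 genes of the ERK5-MEF2 pathway, which induces Klf2 and Klf4, 1 was higher in microglia (29.0%) and none lower (20.8%; median 0.62, beside 0.09 over all genes).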

How the data were processed

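HA-tagged ribosomes were immunoprecipitated and stranded mRNA libraries were sequenced. Adapters were removed by the authors with cutadapt 3.5, and kallisto 0.46.2 assigned reads to GENCODE M24 (GRCm38) transcripts. The deposited tables give estimated counts and TPM per transcript, as the authors deposited them. Reads that fit several transcripts were divided by kallisto, so levels of transcripts that share sequence are uncertain. Both units were summed by gene symbol. Estimated counts were rounded and tested with edgeR 4.0.16 (TMM, quasi-likelihood, Benjamini-Hochberg) in R 4.3.3 on 20524 genes over 18 libraries, with 6 groups in 1 fit. Genes were called at an adjusted p up to 0.05 if they also differed by 2-fold. Transcript usage was tested with edgeR on 12435 genes. TPM were compared as log2(TPM + 0.1), which understates changes of low genes. Alternatives were DESeq2 1.42.0, limma 3.58.1 (voom), no filter, batch 2 libraries, a replicate block, protein-coding transcripts, a pseudocount of 1 and leaving out each replicate. Code was tested on simulated data. Tables were handled with Python 3.11.15, pandas 2.3.3 and numpy 2.4.6, and figures with matplotlib 3.10.9.

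The 10 genes and all lists were chosen with earlier results of these data known. Named genes were the 10 members, the other KLF and SP genes, the listed pathway genes with the largest changes and the 5 genes most like Klf10. Sequences came from GENCODE M21 (140930 of 142552 transcripts matched with version) and RefSeq on GRCm38.p6. The replicates are separate biological samples per the labels.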

Additional observations from a re-analysis of the deposited data

How the results depend on the processing

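Over the alternatives, 195 values of the comparisons stayed near the main value, and the other 2 follow. For numbers of genes called, near means within a set factor of the main number. For the layer V difference of Klf10 it means a move smaller than the SD of the layer V libraries. Without the 326-base Klf10 transcript, an alternative added after seeing the data, the layer V difference of Klf10 was 1.49 in place of 3.55 on the log2(TPM + 0.1) scale. Leaving out each replicate gave 3.40 to 3.64 and batch 2 libraries 3.36. Under the stricter filter on transcripts (at least 10% of a gene's counts in at least 3 libraries), 5382 genes had changed usage in glia in place of 8300, with fewer transcripts tested. Pairing by replicate number was weak at most: of 45 same-numbered pairs of libraries, 3 correlated above 0.1 (median r 0.04). For dentate gyrus and layer V libraries, made with the same driver, r was -0.014 to 0.105. Whether some of these came from the same mouse was not tested. With the replicate block the edgeR difference of Klf10 was 3.49 in place of 3.496, and 6844 genes were called in layer V neurons in place of 6868. Among single genes 2150 values kept their call or moved by less than their spread, 17 lost a call and 12 gained one. Another 65 untested differences of the 10 genes moved by more than their spread. Of the differences called or at least 2-fold at first, 0 reversed. Smaller ones were not counted as reversed if their sign changed. Klf10 in dentate gyrus granule cells, for example, went from -0.49 to 0.91 without the 326-base transcript. Sp6 in glia, at 1.02, was under 2-fold in 15 settings (0.88 to 0.99). Sp9 in glia was at 0.88 without astrocyte replicate 3, and in layer V neurons at -0.67 with protein-coding transcripts only. On the TPM scale 2 of the 70 differences of the 10 genes had the opposite sign, Klf2 in layer V neurons (-0.08) and Klf6 in astrocytes (-0.08). Klf2 and Klf4 in cerebellar granule cells are limited by depth.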

Other observations

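Of the 22 libraries, 21 matched their labelled sex by sex-linked genes and 1 did not, the batch 2 repeat of layer V replicate 1, which is labelled male while its batch 1 library is labelled female. It is not among the 18 libraries used and enters the comparison of repeats and the batch 2 alternatives.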
